A study of Mus musculus with 66 samples.

Results

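Vertebrate muscle buffers ATP with phosphocreatine. The 7 genes described here make creatine, carry it into the cell or pass phosphate between creatine and ATP. They are Ckm and Ckb (the muscle and brain forms of cytosolic creatine kinase), Ckmt1 and Ckmt2 (the mitochondrial creatine kinases), Gatm and Gamt (the enzymes of creatine synthesis) and Slc6a8 (the creatine transporter). They were selected on their names in the mRNA-Seq table, with earlier results of the same libraries known, and all 7 were found among its 22489 gene rows. Their values in these libraries are therefore given as a description, without a test.

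The cells were C2C12, a mouse myoblast line that fuses into myotubes when serum is withdrawn. WT cells carried no transgene. The other 9 lines carried a doxycycline-inducible histone H3 with GFP at its N-terminus, and each line is named by its histone. H3t, H3.2 and H3.1 are called H3.1/H3.2-type here (3 lines). H3.3 is grouped as H3.3-type (6 lines) with its relatives H3mm16, H3mm13, H3mm12, H3mm11 and H3mm7. Each of the 10 lines gave 1 library in growth (20% fetal bovine serum, 60 to 70% confluence) and 1 after 48 h in 2% horse serum, which makes 20 libraries. The GFP-H3 lines were made with a transposon vector, selected with drug and sorted for GFP, so each is a population that differs from WT by more than its histone. The line is the replicate, each line has 1 mRNA-Seq library per state, and spread between lines holds line, culture and library differences together. The column named H3mmT was taken as the H3t line.

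In this pathway Gatm joins arginine and glycine to guanidinoacetate, and Gamt methylates that product to creatine. Creatine enters cells through Slc6a8. Cytosolic creatine kinases work as dimers of Ckm and Ckb subunits, and mitochondrial ones as octamers that load creatine at the site of ATP export. A shift from Ckb to Ckm is well known in muscle differentiation, and adult muscle fibres also hold Ckmt2.

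Markers were compared with the labelled states. Of 7 myotube markers in the table, including Myog and Myh3, all 7 were called higher in differentiated cells, and the cell cycle genes Ccnb1, Mki67 and Top2a were called lower (limma, adjusted p from 9.81e-13 to 8.95e-06). Myh3 stayed at 0.536 FPKM or less in growth and entered the fit through its differentiated values. Pax7, a satellite cell gene, was below 1 FPKM in every library, and Myf5, a myoblast regulator, was not called (difference -0.05, limma adjusted p = 0.884), with 5 lines higher and 5 lower. Part of the markers of other cell types was below 1 FPKM in all 20 libraries. These were Pdgfra and Thy1 (fibroblasts), Adipoq and Plin1 (adipocytes), and Sp7 and Ibsp (osteoblasts). So were Ptprc, Emr1 and Csf1r (macrophages) and Rbfox3, Gfap and Syp (neural cells). Other genes of the same lists were detected: Fabp4 reached 4.96 FPKM, Cebpa 1.92, Bglap 2.37 and Cd68 3.90. Col3a1 of the fibroblast list ran from 91.9 to 527 FPKM. On these other lists Dcn was called higher in differentiated cells (difference 4.50), Tubb3 and Runx2 were called lower (-2.32 and -1.20), and their part in the results was not tested. The summed FPKM of a library ran from 409319 in WT growth to 894105 in differentiated H3mm7, and read numbers are unknown. WT stood apart, with 388 genes at least 8-fold below the lowest GFP-H3 library in both states, of which 0 are creatine genes and 1 (Ahcy) belongs to a list used below.

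The 250 bases before the RefSeq start of 4 of the genes are shown because these 4 differed most between states or lines. Each was found once in mm9. Capitals mark matches to the E-box CANNTG, to CAGCTG (a palindrome that every E-box search also finds) and to the MEF2 motif, which muscle regulators are known to bind. All motifs were searched on both strands of the window from 250 bases before to 50 bases after the start.
Ckm, chr7:19996193-19996442, plus strand: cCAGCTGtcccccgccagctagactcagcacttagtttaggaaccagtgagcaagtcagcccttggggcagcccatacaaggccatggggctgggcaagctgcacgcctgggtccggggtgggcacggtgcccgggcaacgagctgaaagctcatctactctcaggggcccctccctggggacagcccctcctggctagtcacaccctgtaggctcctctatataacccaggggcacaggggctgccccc
Ckb, chr12:112910550-112910799, minus strand: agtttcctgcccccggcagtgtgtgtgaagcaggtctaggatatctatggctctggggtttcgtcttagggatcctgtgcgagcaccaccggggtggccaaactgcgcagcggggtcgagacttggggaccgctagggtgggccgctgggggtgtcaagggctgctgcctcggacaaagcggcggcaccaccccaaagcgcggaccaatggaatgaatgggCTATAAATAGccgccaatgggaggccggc
Gamt, chr10:79723758-79724007, minus strand: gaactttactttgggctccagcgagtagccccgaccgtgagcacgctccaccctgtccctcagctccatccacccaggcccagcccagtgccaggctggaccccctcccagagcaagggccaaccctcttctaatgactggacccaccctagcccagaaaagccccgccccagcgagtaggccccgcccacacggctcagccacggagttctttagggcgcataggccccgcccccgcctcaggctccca
Gatm, chr2:122437014-122437263, minus strand: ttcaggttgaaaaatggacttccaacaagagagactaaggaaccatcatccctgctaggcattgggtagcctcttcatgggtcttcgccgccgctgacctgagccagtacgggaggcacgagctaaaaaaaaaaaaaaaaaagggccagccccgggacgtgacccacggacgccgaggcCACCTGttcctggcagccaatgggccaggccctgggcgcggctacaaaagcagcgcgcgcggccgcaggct

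The Ckm window held 1 CAGCTG, 249 bases before the start. The Ckb window held no E-box but 1 MEF2 match (CTATAAATAG), 29 bases before the start, whose letters include TATAAA. The Gamt window held 1 E-box (CACTTG), 2 bases after the start and so beyond the printed stretch. The Gatm window held 1 E-box (CACCTG), 71 bases before the start. CAGCTG was not particular to Ckm among these genes. Of the genes not shown, Ckmt2 held CAGCTG 107 bases before the start, among 4 E-boxes. A window of Ckmt1 held CAGCTG starting 1 base before the start, and the other Ckmt1 window held no E-box. No window of the 7 found for 6 of the genes held a CArG box. An E-box is common: 72.3% of 32851 RefSeq windows held one. CAGCTG was in 16.3%, the MEF2 motif in 3.19% and the CArG box in 1.63%. These matches describe letters only. Slc6a8 had no window in the table. On mm9, GENCODE places Ckm at chr7:19996443-20006932, Ckb at chr12:112907566-112910549, Ckmt1 at chr2:121183450-121189473 and Ckmt2 at chr13:91992992-92016490. Gamt lies at chr10:79720896-79723757, Gatm at chr2:122420203-122437039 and Slc6a8 at chrX:70918489-70927841.

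Ckm, the muscle isozyme, was nearly silent in growth and among the strongly expressed genes of the pathway after differentiation. In growth it was listed at 0 in H3.2, at 0.0531 FPKM in H3mm16, 0.0562 in H3.1, 0.0708 in H3t, 0.129 in WT, 0.206 in H3mm13, 0.300 in H3mm12, 0.664 in H3mm11, 0.916 in H3.3 and 1.36 in H3mm7. After differentiation it was 94.9 FPKM in H3t, 104 in H3mm11, 144 in H3.1, 144 in H3mm7, 166 in H3.3, 257 in H3.2, 401 in WT, 527 in H3mm13, 541 in H3mm16 and 607 in H3mm12. The states did not overlap, since the lowest differentiated library stood far above the highest growth library. The mean log2(FPKM + 1) went from 0.40 ± 0.43 to 7.91 ± 1.03 (SD, n = 10), a difference of 7.51 (SE 0.33). As a bulk measurement this cannot tell more cells with Ckm from more Ckm RNA per cell.

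The lines with the highest Ckm in growth were not those with the highest Ckm after differentiation. H3.3, H3mm7 and H3mm11 held the 3 highest growth values (0.664 to 1.36 FPKM against 0 to 0.300 in the other 7) and the 3 smallest changes (5.94 to 6.45 on the log2(FPKM + 1) scale). Over all genes, 204 of 10954 (1.86%) had these 3 growth libraries above the other 7. Among them was 1 of the 5 creatine genes in the fit, Ckm. Ckm passed the filter on the mean of all 20 libraries through its differentiated values. The fit of growth libraries alone tested 4 creatine genes, without Ckm, so nothing is read from this share. The myotube markers Myh3 (0.251 to 0.536 against 0.0211 to 0.235 FPKM) and Acta1 (74.4 to 111 against 2.83 to 60.2 FPKM) were also higher there in growth without overlap. Myog (7.35 to 23.1 against 0.106 to 16.9 FPKM) and Des (233 to 497 against 165 to 326 FPKM) overlapped. The sum of the 7 myotube markers overlapped too (359 to 684 against 198 to 417 FPKM). The part of these markers in the Ckm values was not tested. On that scale H3mm12, H3mm13 and H3mm16 showed the 3 largest changes (8.77 to 9.01), while by the ratio of FPKM those of WT (3115) and H3.1 (2556) exceeded that of H3mm12 (2020). Growth values under 1 FPKM rest on few reads, and the number is unknown.

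**Figure D1:**
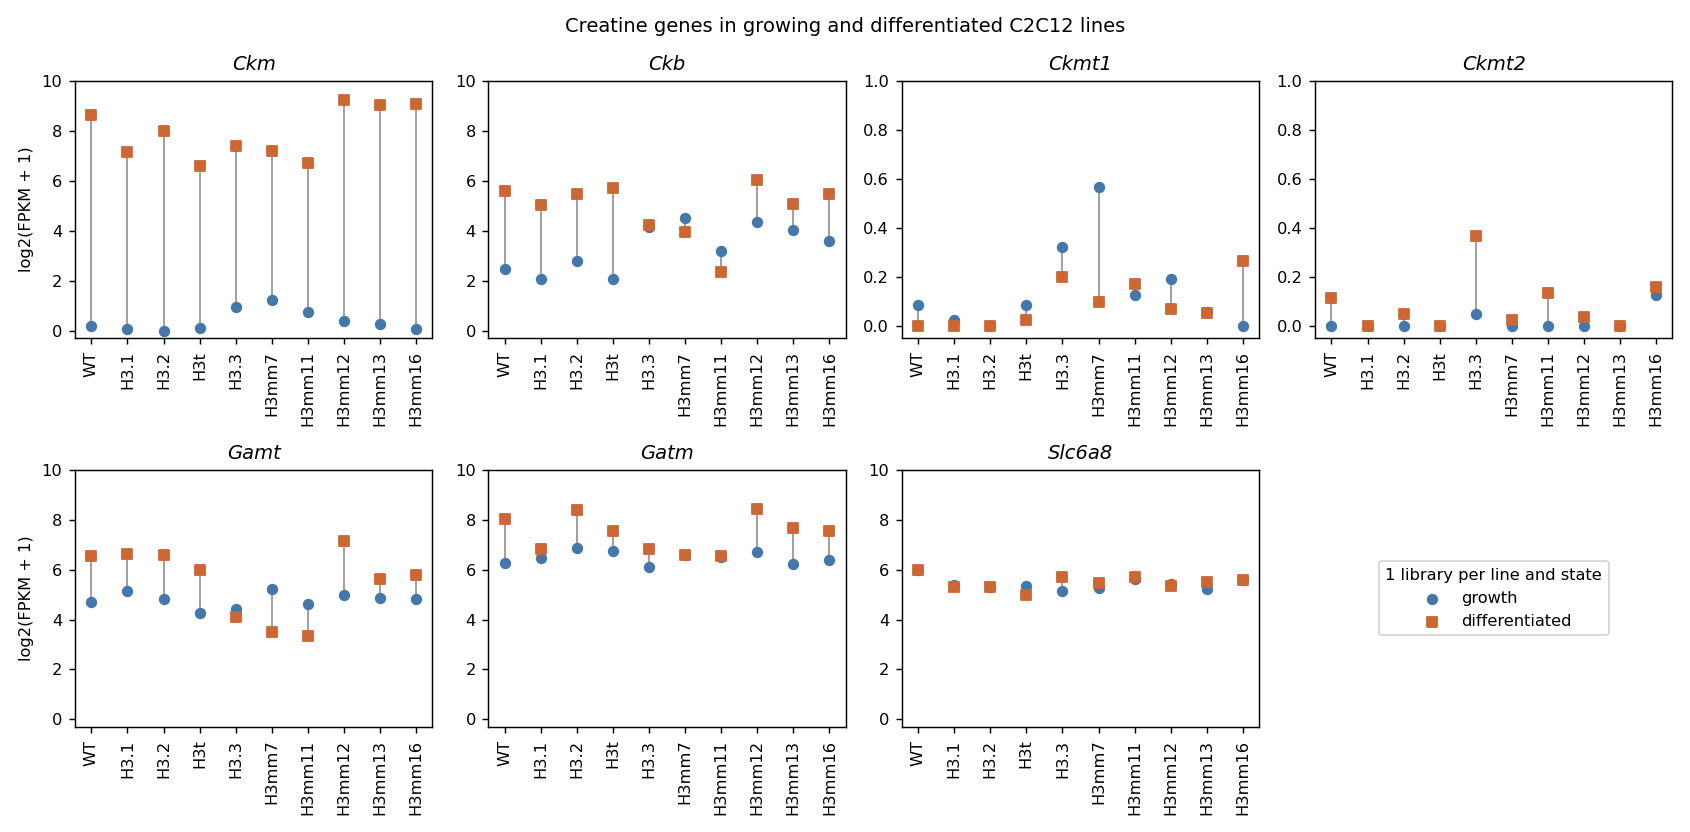
Level of each of the 7 genes as log2(FPKM + 1) in each of the 10 lines, with growth as circles, differentiated cells as squares and a line joining the libraries of 1 line. The panels of Ckmt1 and Ckmt2 have a shorter axis, and their points stay below 1, while Ckm lies at 1.36 FPKM or less in growth and at 94.9 FPKM or more after differentiation.

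Ckb, the brain isozyme, was present in both states, and its change depended on the line. In growth it ran from 3.2 FPKM in H3.1 through 3.22 in H3t, 4.54 in WT, 6.01 in H3.2, 8.23 in H3mm11, 10.9 in H3mm16, 15.4 in H3mm13, 17.0 in H3.3 and 19.6 in H3mm12 to 21.7 in H3mm7. In differentiated cells it was 4.12 in H3mm11, 14.5 in H3mm7, 17.9 in H3.3, 31.8 in H3.1, 32.9 in H3mm13, 42.9 in H3mm16, 44.1 in H3.2, 47.7 in WT, 51.0 in H3t and 64.7 in H3mm12. Ckb was higher after differentiation in 8 lines and lower in 2 (H3mm7 and H3mm11), and in H3.3 the ratio of the states was 1.05. WT and the 3 H3.1/H3.2-type lines had 7.33 to 15.9 times their growth level, while H3mm12, H3mm13 and H3mm16 had 2.13 to 3.92 times theirs. The mean log2(FPKM + 1) went from 3.33 ± 0.94 to 4.90 ± 1.10 (SD, n = 10), a difference of 1.57 (SE 0.43).

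Ckm replaced Ckb as the main cytosolic creatine kinase RNA. Both values are FPKM, a level per length. The sum of Ckm and Ckb had a median of 9.94 FPKM in growth (3.26 to 23.0) and of 243 FPKM in differentiated cells (108 to 671). Ckm made up 0 to 7.47% of that sum in growth, with a median of 1.94%, and 65.0 to 96.2% after differentiation, with a median of 90.3%. The lowest shares after differentiation were those of the H3.1/H3.2-type lines, at 65.0% in H3t, 81.9% in H3.1 and 85.4% in H3.2. WT had 89.4%, and the 6 H3.3-type lines had 90.3 to 96.2%. After quantile normalization between libraries WT had 93.1%, within the range of the H3.3-type lines (88.5 to 96.0%). The H3.1/H3.2-type lines stayed lowest (65.0 to 85.2%). The order of the lines was seen after the values were known.

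**Figure D2:**
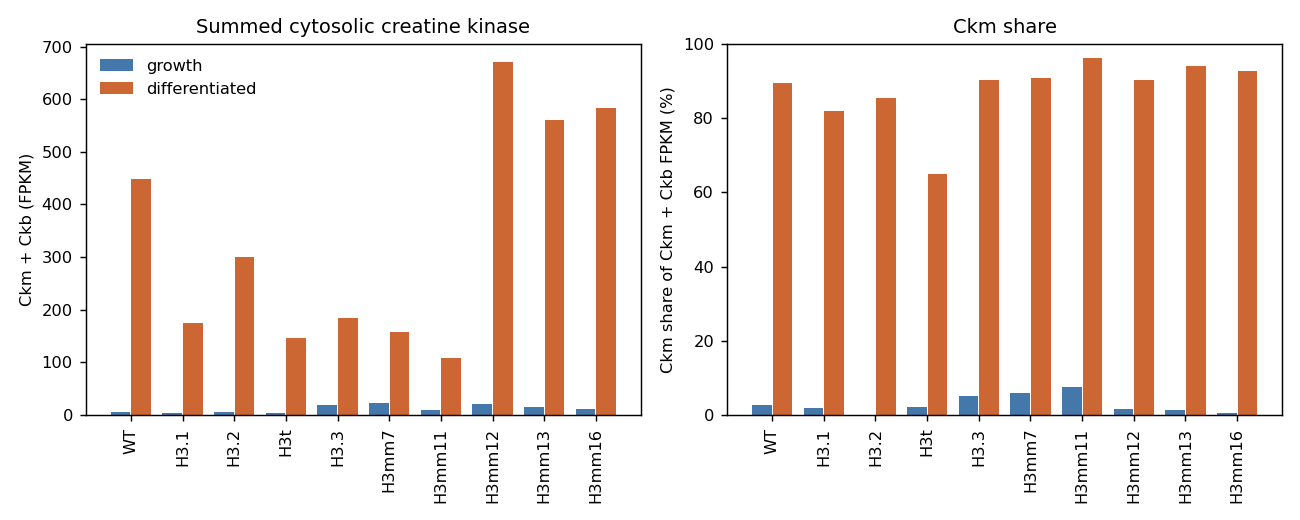
Left, the sum of Ckm and Ckb in FPKM; right, the percentage of that sum that is Ckm, with growth and differentiated bars for each line. Ckm stays at 7.47% or less in growth and lies at 65.0% (H3t) or above in every differentiated library.

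Ckmt1 and Ckmt2, the mitochondrial isozymes, were close to absent in both states. Ckmt1 reached at most 0.483 FPKM, in growing H3mm7, and was listed at 0 in 5 of 20 libraries. Ckmt2, the form of adult striated muscle, reached at most 0.290 FPKM, in differentiated H3.3, and was listed at 0 in 11. Neither had a mean of 1 FPKM, so neither entered the fit, and no fold is given. The highest Ckmt1 value after differentiation was 0.203 FPKM, so at 48 h neither mitochondrial isozyme had the level of Ckm or Ckb in any line.

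Gatm, the first enzyme of synthesis, was the most abundant of the 7 genes in growth. Its growth values ran from 68.7 FPKM (H3.3) to 117 (H3.2), with a median of 88.1. After differentiation they ran from 93.2 (H3mm11) to 344 (H3mm12), with a median of 185. Gatm was higher in differentiated cells in 9 of 10 lines, and H3mm7 had 95.3 FPKM in growth and 94.1 after. WT, H3.2, H3mm12 and H3mm13 had 2.70 to 3.37 times their growth level. H3mm7, H3mm11 and H3.1 had 0.987 to 1.29 times theirs. The mean difference was 0.94 (SE 0.23) on the log2(FPKM + 1) scale, with an SD between lines of 0.66.

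Gamt, the second enzyme, was lower after differentiation in 3 lines and higher in 7. In growth all 10 libraries lay between 18.1 FPKM (H3t) and 35.9 (H3mm7). After differentiation Gamt was 9.05 FPKM in H3mm11, 10.2 in H3mm7 and 15.98 in H3.3. It was 47.9 in H3mm13, 54.6 in H3mm16, 63.1 in H3t, 92.4 in WT, 95.9 in H3.2, 98.2 in H3.1 and 140 in H3mm12. The first 3 libraries stood below all growth values of the other lines and below every other differentiated library. Gamt went to 0.283 times its growth level in H3mm7, 0.388 in H3mm11 and 0.773 in H3.3, and to 1.70 to 4.57 times in the other 7 lines. The mean difference was 0.74 (SE 0.42), a mean of changes that ran from -1.72 to 2.16 on the log2 scale.

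The balance of the synthesis enzymes did not follow Gamt in every line. Per 100 FPKM of Gatm there were 17.1 to 39.5 FPKM of Gamt in growth. In differentiated cells there were 9.71 to 14.4 in H3.3, H3mm7 and H3mm11 and 23.9 to 88.4 in the other 7 lines, the highest in H3.1. In H3mm13 and H3mm16 this ratio fell on differentiation (38.1 to 23.9 and 33.3 to 29.5), although Gamt rose there.

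Slc6a8, the transporter, had similar values in both states. It was 34.5 to 61.5 FPKM in growth (median 40.2) and 30.4 to 63.2 FPKM after differentiation (median 43.7). The 2 highest values of all 20 were those of WT, 61.5 and 63.2, so the line kept its place across states. The ratio of the states lay between 0.773 (H3t) and 1.49 (H3.3), and the mean difference was 0.06 (SE 0.12).

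**Figure D3:**
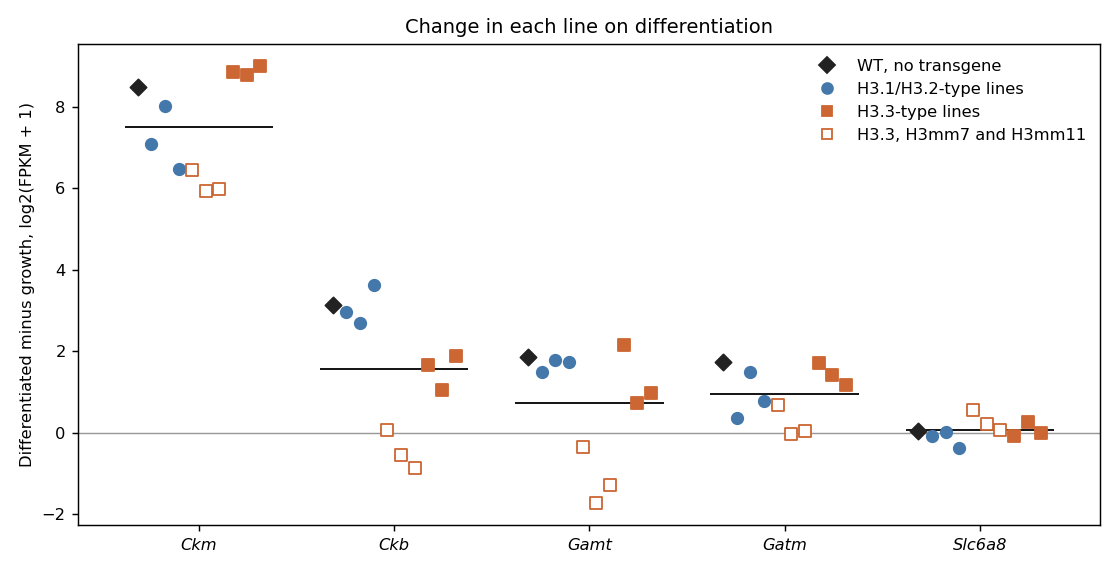
Difference between differentiated and growing cells on the log2(FPKM + 1) scale, 1 point per line, for the 5 genes with a mean of at least 1 FPKM; the bar is the mean of 10 lines. Open squares (H3.3, H3mm7 and H3mm11) lie lowest for Ckb and Gamt, and all 3 are below 0 for Gamt.

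Across all genes, growth and differentiated cells differed widely. Genes averaging 1 FPKM or more were tested with limma on log2(FPKM + 1), with no term for the line. A call needed a p below 0.05 after Benjamini-Hochberg adjustment and a size of 1 or more. Of 10954 genes, 972 (8.87%) were called higher and 921 (8.41%) lower in differentiated cells. Of the 5 creatine genes in the fit, 2 (Ckm and Ckb) passed the rule for higher and 0 that for lower. These genes were chosen with earlier results of the libraries known, so nothing is read from this count. The count of creatine genes rests on lines close to the limit of 1: it was 3 without H3.1 or without H3mm11, where Gatm passed, and 4 without H3mm7, where Gatm and Gamt passed. Without WT the differences were 1.39 for Ckb, 0.85 for Gatm and 0.62 for Gamt, and the same 2 genes passed. The 10 differentiated libraries stood above the 10 growth libraries without overlap for 969 genes (8.85%), which include 1 of the 5, Ckm. Ckm passed the filter on the mean through its differentiated values, so nothing is read from that count.

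In the study, the differentiated H3.3, H3mm7 and H3mm11 libraries were set apart as a group named D3, on a principal component of these same libraries. Gamt is itself among the genes that the study chose for that component to measure by amplicon sequencing, which was not analysed here. The grouping is thus not independent of the values below, so they are described without a test. In D3, Gamt (9.05 to 15.98 FPKM) and Ckb (4.12 to 17.9 FPKM) did not overlap the other 7 libraries (47.9 to 140 and 31.8 to 64.7). Over all genes in the fit, 863 of 10954 (7.88%) had the 3 D3 libraries below the other 7, and 2 of the 5 creatine genes were among them. After quantile normalization between libraries Gamt and Ckb remained without overlap, and Gatm also had none. In growth the same 3 lines overlapped the others for Gamt (20.7 to 35.9 against 18.1 to 34.0 FPKM) and for Ckb (8.23 to 21.7 against 3.2 to 19.6).

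Muscle markers differed between these lines as well. The summed level of the 7 myotube markers was 4705 to 6716 FPKM in D3 and 4911 to 20905 FPKM in the other 7 differentiated libraries. Myh3, the embryonic myosin heavy chain, was 54.9 to 78.0 FPKM in D3 and 95.6 to 1060 in the others, without overlap. Myog, the regulator of terminal differentiation, overlapped (347 to 513 against 329 to 1151), as did Myf5 (56.3 to 95.9 against 17.5 to 75.1). Acta1 (1432 to 1844 against 1436 to 7352) and Des (378 to 565 against 547 to 1273) overlapped too. Col3a1, a collagen of the fibroblast list, was 91.9 to 118 in D3 and 223 to 527 in the others, without overlap. Dcn of the same list overlapped (10.0 to 129 against 49.7 to 179). Over all genes in the fit, 7.88% had the D3 libraries below the other 7. Ckm itself was 104 to 166 FPKM in D3 and overlapped the others through H3t and H3.1. Whether the state of the cultures had a part in the levels of Gamt and Ckb was not tested.

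The type of histone was compared over the 9 GFP-H3 lines. In growth, Ckb was 8.23 to 21.7 FPKM in the 6 H3.3-type lines and 3.2 to 6.01 FPKM in the 3 H3.1/H3.2-type lines, without overlap, and WT had 4.54. The means were 3.98 and 2.32 on the log2(FPKM + 1) scale, a difference of 1.66 (SE 0.28). In that comparison limma called 60 of 10607 genes (0.566%) in either direction, and Ckb was the 1 creatine gene of 4 tested that passed. It no longer passed without H3mm13, without H3t or with no filter on low values. With 1 line left out the difference ran from 1.53 (without H3.1) to 1.90 (without H3.2). Since Ckb was chosen with earlier results of these libraries known, nothing is read from its call. H3.3-type libraries stood above all H3.1/H3.2-type ones in growth for 567 genes (5.35%), which include Ckb. Gamt, Gatm and Slc6a8 differed by 0.09, -0.27 and 0.04 between the types in growth, with SEs of 0.20, 0.15 and 0.12. Of the 51 genes of the pathway lists introduced below that entered this fit, 1 was called, Ass1, which was higher in the H3.3-type lines (difference 1.34, limma adjusted p = 0.0153) and not called without H3.2 (difference 1.35, adjusted p = 0.0615).

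**Figure D4:**
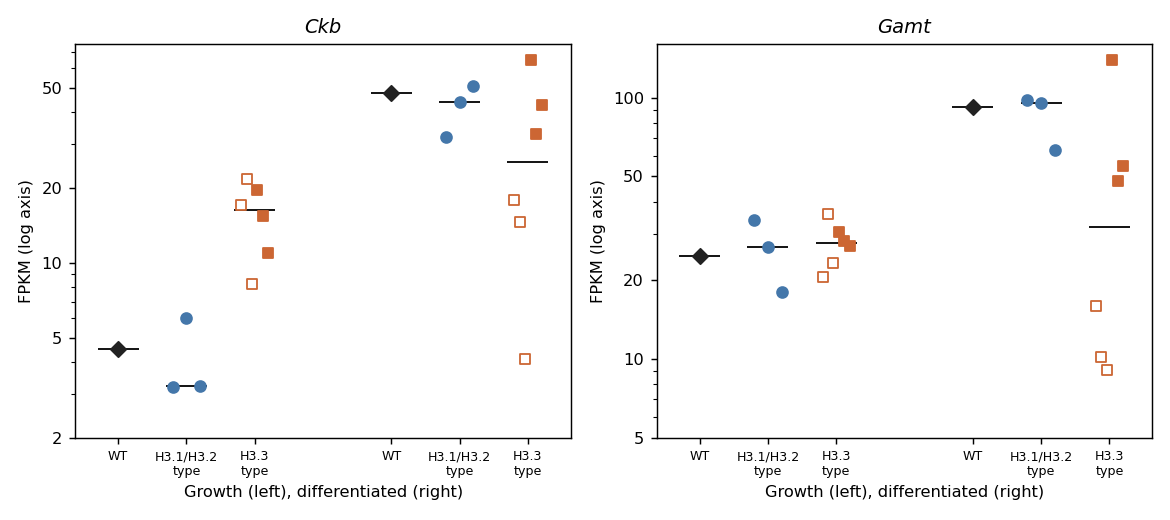
Ckb and Gamt in FPKM on a log axis, by state and type of line, 1 point per library with the median as a bar; open squares are H3.3, H3mm7 and H3mm11. Growing H3.3-type lines lie at 8.23 FPKM or more for Ckb, above the H3.1/H3.2-type lines, and the open squares are lowest in differentiated cells for both genes.

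In differentiated cells the types overlapped for Ckm, Ckb, Ckmt2, Gamt and Gatm, and did not for Slc6a8 and for Ckmt1, whose values are near 0 (at most 0.0158 FPKM against 0.0364 to 0.203). Gamt was 9.05 to 140 FPKM in H3.3-type lines and 63.1 to 98.2 in H3.1/H3.2-type lines, a difference of -1.50 (SE 0.76). Ckb differed by -0.89 (SE 0.66), Ckm by 0.85 (SE 0.62) and Gatm by -0.31 (SE 0.46). With 1 line left out, Ckb ran from -1.19 to -0.45 (without H3mm11), Ckm from 0.51 (without H3t) to 1.23, and Gatm from -0.69 (without H3.1) to 0.09 (without H3.2), which turns its sign. Slc6a8 was 39.9 to 51.2 FPKM in the 6 H3.3-type lines and 30.4 to 38.8 FPKM in the other 3, a difference of 0.35 (SE 0.14), with WT above both at 63.2. Over all genes in this fit, 347 of 10878 (3.19%) had the H3.3-type libraries above the other 3. Limma called 1 of 10878 genes (0.00919%) between the types here, and 1294 had an unadjusted p under 0.05. None of the 5 creatine genes in the fit was called.

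Genes around the pathway were described through 5 lists of 72 genes (71 in the table, 51 in the fit). The lists were chosen with earlier results known. Of the 51, 3 were called higher and 5 lower in differentiated cells, beside 8.87% and 8.41% of all genes, and their median difference was -0.00 on the log2 scale beside 0.04 over all genes.

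Precursor and methyl donor metabolism (19 genes in the fit) had 0 genes higher and 3 lower. Shmt1, which moves one-carbon units between serine and glycine, fell by 1.67 (SE 0.24, limma adjusted p = 4.44e-06), from a median of 15.1 to 3.13 FPKM, in 9 of 10 lines. Mthfd1, a folate enzyme, fell by 1.16 (SE 0.14, adjusted p = 2.54e-07), from a median of 46.7 to 18.1 FPKM, in 10 of 10 lines. Ass1, which feeds arginine synthesis, fell by 1.87 (SE 0.67, adjusted p = 0.0205) in 10 of 10 lines, with WT at 7.21 and 1.37 FPKM and a median over lines of 146 and 24.2. Without H3mm12, Ass1 was not called (difference -1.76, limma adjusted p = 0.0515). Mat2a, which makes the methyl donor used by Gamt, had medians of 97.6 and 119 FPKM and was not called (difference 0.29, adjusted p = 0.0927). Ahcy, which clears the product of methylation, was lower in 10 of 10 lines and not called (difference -1.33, SE 0.82, adjusted p = 0.174), with 0.594 and 0.190 FPKM in WT. With the line as a block Ahcy was called lower (adjusted p = 9.88e-06), and so it was without WT (difference -1.43, adjusted p = 5.44e-07).

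Adenine nucleotide phosphotransfer (14 in the fit) had 1 higher and 2 lower. Adssl1, the muscle adenylosuccinate synthase, rose by 1.19 (SE 0.34, limma adjusted p = 0.00499), from a median of 15.2 to 41.8 FPKM, in 8 of 10 lines. Nme1, a nucleoside diphosphate kinase, fell by 1.26 (SE 0.14, adjusted p = 1.45e-07) in 10 of 10 lines. Ak1, the cytosolic adenylate kinase of muscle, had medians of 70.9 and 121 FPKM and was not called (difference 0.51, SE 0.30, adjusted p = 0.151).

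Mitochondrial nucleotide and phosphate exchange (6 in the fit) had no call, and the count with an adjusted p below 0.05 at any size was 2. Slc25a4, the muscle ADP/ATP carrier, had medians of 651 and 618 FPKM (difference -0.10, SE 0.12). Among SLC6 and amino acid carriers (3 in the fit), Slc6a9, a glycine transporter related to Slc6a8, rose by 3.13 (SE 0.30, limma adjusted p = 1.16e-08), from a median of 4.88 to 46.9 FPKM, in 10 of 10 lines. Slc6a6, the taurine transporter, was not called (difference 0.31, SE 0.22). Slc16a12, which carries creatine out of cells, reached at most 0.0331 FPKM in any library.

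AMP-activated kinase and Pgc1 regulators (9 in the fit) had 1 gene higher and 0 lower. Prkag3, the muscle gamma subunit of the kinase that senses AMP, rose by 2.89 (SE 0.26, limma adjusted p = 3.53e-09), from a median of 0.175 to 8.72 FPKM, in 10 of 10 lines. With at most 0.872 FPKM in growth, Prkag3 passed the filter on the mean through its differentiated values. Prkag1 and Prkag2, the other gamma subunits of that kinase, were lower in 10 of 10 lines by less than the limit of 1 (differences -0.49 and -0.84, adjusted p = 0.000340 and 4.79e-05). Ppargc1a, a regulator of mitochondrial genes, did not reach a mean of 1 FPKM (medians 0.0504 and 0.423).

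**Figure D5:**
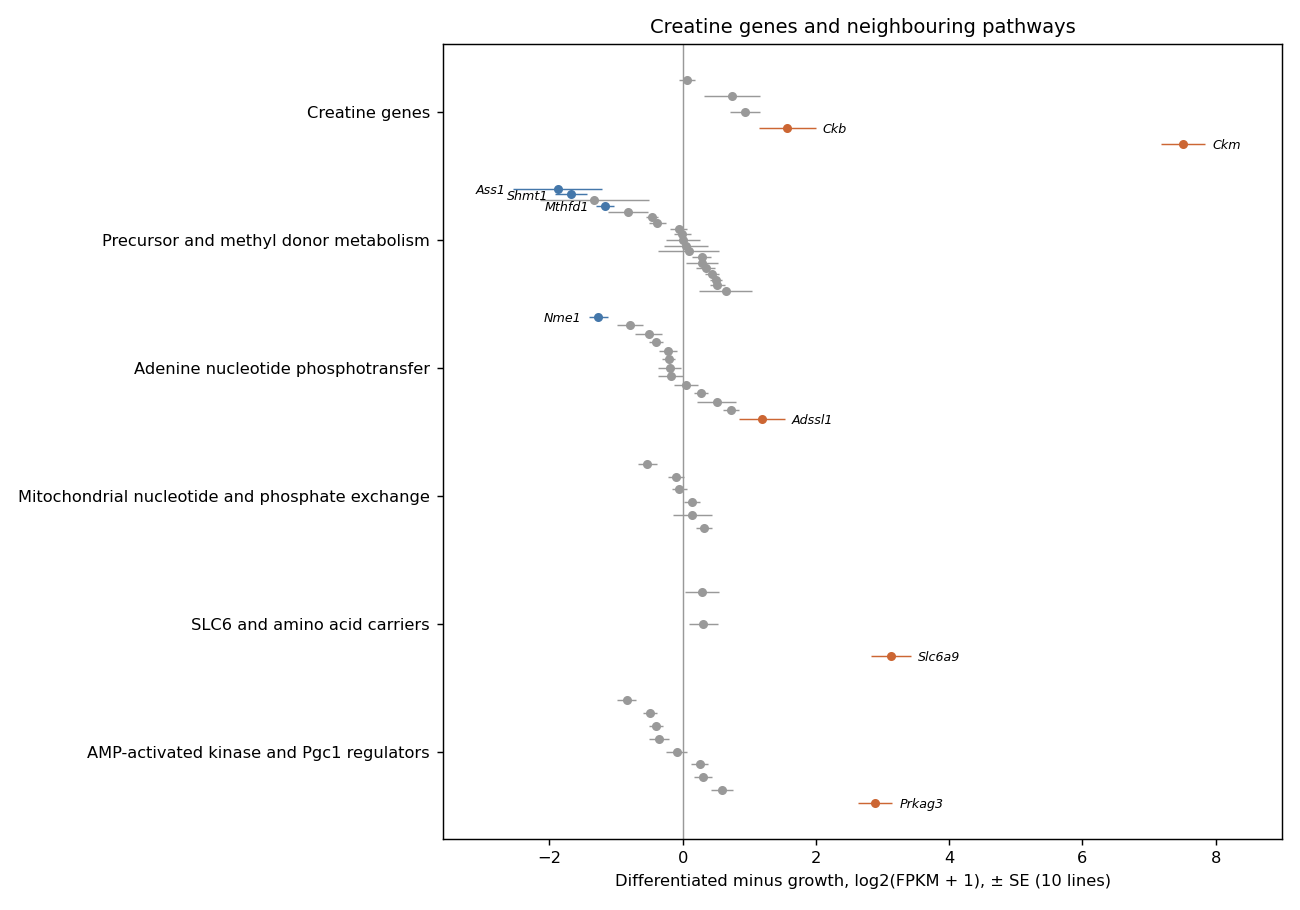
Difference between differentiated and growing cells with its SE for the genes in the fit that are reported here, by list, with genes called higher in orange, called lower in blue and others in grey. Ckm lies at 7.51, beyond Slc6a9 (3.13) and Prkag3 (2.89).

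The genes most like each creatine gene were found by Pearson's r of log2(FPKM + 1), which is descriptive and carries no p because the libraries share lines and states. Over 20 libraries, those most like Ckm were Tnni2, fast troponin I (r = 0.995), Hfe2 (0.994) and Gm7325 (0.994). For Ckb they were Gmpr (0.924), Calml4 (0.900) and Ccnd3 (0.894), for Gatm Fmo1 (0.950), Pstpip2 (0.932) and Rab33b (0.930), and for Gamt Heg1 (0.935), Hip1 (0.933) and Olfml2b (0.921). Slc6a8 was most like Mdm2 (0.805), Slc23a2 (0.786) and Lrrc47 (0.764).

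Over the 18 GFP-H3 libraries with the mean of each state taken off, Ckm was most like Ryr1, the calcium release channel (0.937), Myom3 (0.936) and Hrc (0.925), which act in the muscle cell's contraction apparatus or calcium store. Ckb was most like Pxmp4 (0.929), Calml4 (0.906) and Carns1, which makes carnosine (0.898). Gamt was most like Akap6 (0.953), Cnn3 (0.947) and 2510009E07Rik (0.942), Gatm like Cd164 (0.927), Rb1 (0.923) and Gm14635 (0.920), and Slc6a8 like Plcl2, Arl8a and B3galt6 (0.796 to 0.799). For Ckmt1 and Ckmt2, whose values are near 0, the highest r were 0.843 (Lama2) and 0.823 (Gm5148), on values too low to read.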

How the data were processed

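mRNA of C2C12 cells (10 lines, growth and differentiated, 20 libraries) was analysed as deposited FPKM. Per the labels and the study's methods, the authors mapped reads to mm9 with TopHat2 2.0.8 and estimated FPKM by Cuffdiff of Cufflinks 2.0.1 at default settings. How WT reads were mapped, the gene annotation, the doxycycline dose before RNA isolation and read numbers are not given in the sources used here. Low values gave no common read step, so depth is unknown and no counting interval is given. FPKM divides by length and library total, so a few strong muscle genes can lower the others, and low levels are imprecise. 3′-seq tables list histone genes only and were not used; ChIP-seq and amplicon sequencing were not analysed here. No column of per-sample values was left out of the table.

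Genes were tested with limma 3.58.1 (trend and robust settings, R 4.3.3) on log2(FPKM + 1) if they averaged 1 FPKM or more. A call needed a p below 0.05 after Benjamini-Hochberg adjustment and a size of 1 or more. The fit was tested on simulated data. Fold changes on this scale understate those of low genes. The states were compared over 10 libraries each, and within a state the 6 lines of H3.3-type were compared with the 3 of H3.1/H3.2-type. p-values measure the spread between lines, since each line has 1 mRNA-Seq library per state. The main fit of the states had no term for the line, so its SEs and p-values are unpaired. With the line as a block, the SE of Slc6a8 went from 0.12 to 0.08. The limma adjusted p of Ahcy went from 0.174 to 9.88e-06. Libraries of 1 line deviated together (r of deviations from 0.273 to 0.877), so the line pairs the states. Alternatives covered the pseudocount, filters, quantile normalization, limma settings, a line block and leaving out lines.

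The creatine genes and all lists were chosen with earlier results of these data known. Of the list genes, 1 is in the counts but is not reported here. Named genes are the 7 members, up to 4 called genes per list and direction, and the 3 genes most like each member by r. Other genes of the lists were named for their role, after their values were seen, as were the comparisons with the D3 lines. Promoter windows are RefSeq's (GRCm38.p6), placed on mm9 by exact match, and loci are from GENCODE on mm9. The software was matplotlib 3.10.9, scipy 1.17.1 and Python 3.11.15, with pandas 2.3.3 and numpy 2.4.6.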

Additional observations from a re-analysis of the deposited data

Results flagged for a closer look

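In 14 combinations of gene and state, the gap between an extreme library and its neighbour was compared with the range of the 10 libraries (Dixon's 95% limit), and 4 stood out; chance gives about 1 in 20 for each. Slc6a8 in growth was 61.5 FPKM in WT, with 48.7 FPKM in the next line and a median of 40.2. Its gap over range was 0.473, close to the limit, and was not recomputed on the log2 scale. Ckmt1 in growth was 0.483 FPKM in H3mm7, with 0.252 in the next line. Ckmt2 was 0.0909 FPKM in growing H3mm16 and 0.290 FPKM in differentiated H3.3, with 0.0357 and 0.117 in the next lines. The values of both mitochondrial genes are near 0.

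Gamt was lower in differentiated than in growing cells in the 3 D3 lines (by -0.35 to -1.72 on the log2 scale) and higher in the other 7 (0.74 to 2.16). This difference between lines was not tested, since the study grouped the lines on these libraries, by a component for which it chose Gamt as a gene to measure.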

How the results depend on the processing

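Of 354 values recomputed under the alternatives, 327 moved by less than the limits set (counts within 1.5 times, values within 1 SD), and none of the called differences changed sign. Over growth and differentiated cells, leaving out 1 line gave 948 to 1025 genes higher, 897 to 953 lower, 7 to 9 list genes and 2 to 4 creatine genes called. The line as a replicate block gave 979 genes higher and 931 lower, with 2 creatine genes called; among the named genes it changed 1 call, that of Ahcy, to lower. A pseudocount of 0.1 FPKM gave 1197 and 1106 genes, and moved the difference of Ckm from 7.51 to 9.52. Between line types in growth, 60 genes became 92 with that pseudocount, 26 without a filter on low values and 31 among genes averaging 5 FPKM or more, and ran from 31 to 61 with 1 line left out; the 1 creatine gene became 0 without a filter and 0 to 1 with 1 line left out. Between types in differentiated cells, 1 gene became 0 to 4 with 1 line left out. The causes were not tested. With Spearman's rho in place of Pearson's r, 0 to 2 of the 3 genes most like each creatine gene were shared. The gap that separates the D3 lines was 1.52 for Gamt and 0.80 for Ckb, and 1.56 and 0.82 after quantile normalization, alternatives chosen after seeing the data. With a mean of at least 5 FPKM, the genes below the others in D3 numbered 655 in place of 863. Unknown read numbers limit values under 1 FPKM most.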
